A study of Mus musculus with 12 samples.

Results

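The subject here is Dck and 9 other genes of nucleoside salvage kinases, each read in 4 mouse leukaemia cell lines by every probe set that the platform annotation gives to it. The 10 genes were chosen by name, as kinases that phosphorylate nucleosides or their nucleotides. They hold 24 of the 45037 probe sets tested, 3 for Dck, 6 each for Uck2 and Adk, 2 each for Cmpk1 and Nme1, and 1 each for Dguok, Tk1, Tk2, Uck1 and Nme2. None of the 24 is shared with a second gene symbol, none was filtered out, and each was read on its own.

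B117H and B140H are lines highly resistant to cytarabine (Ara-C), derived from the Ara-C-sensitive parental lines B117P and B140P. All 4 derive from acute myeloid leukaemia (AML) of BXH-2 mice, which are prone to this disease, and each is a single cell line measured on 3 arrays named A, B and C. The labels give the same handling for all arrays, exposure to rising Ara-C and passage without the drug, and do not say whether the 3 arrays of a line came from separate cultures, so a p-value here covers the scatter of these arrays, which may be technical.

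A cell can build DNA precursors afresh or salvage them from nucleosides, and salvage begins when a kinase adds a phosphate that keeps the nucleoside in the cell. Dck does this for deoxycytidine and for its analogue Ara-C, the mitochondrial kinases Dguok and Tk2 do it for purine and pyrimidine deoxynucleosides, and Tk1 does it for thymidine in the cytosol, mostly in S phase. Cmpk1 adds the next phosphate to cytidine and uridine monophosphates, and the nucleoside diphosphate kinases Nme1 and Nme2 the last one. Uck1 and Uck2 start the salvage of the ribonucleosides uridine and cytidine, and Adk that of adenosine. Loss of Dck activity is a known route to Ara-C resistance, since the drug acts only as its triphosphate.

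Across probe sets, the correlation was 0.988 to 0.997 for arrays of 1 line and 0.954 to 0.967 across lineages. Array medians lay between 118 and 131 intensity units, the highest being that of B140H B. All 12 myeloid markers listed for a check of the labels were measured. Of these, 12 lay above the median probe set in B117H and in B117P, 10 in B140H and 9 in B140P. Their summed intensity was 52656 to 56005 in B117H and 63105 to 76052 in B117P, and 24706 to 26629 in B140H and 28966 to 31612 in B140P. Bright genes weigh most in it, such as Mpo, with log2 means of 14.04 and 14.62 in these B117 lines against 7.13 and 9.54 in B140H and B140P. Most of the 12 had lower means in both B140 lines. Cd33 was higher there, at 10.39 and 11.37 against 8.85 and 8.56. Spi1 was about level, at 11.38 and 11.31 against 11.19 and 11.52. Of 5 measured B cell markers, 4 lay above the median in both B140 lines and 1, Pax5, in both B117 lines. Their summed intensity was 4158 to 5087 in B140H and 2839 to 3530 in B140P, and 423 to 442 in B117H and 461 to 528 in B117P. Sums of 6 T cell, 4 erythroid and 6 stromal markers lay between 436 and 868 on all 12 arrays. Above the median lay 3 of the T cell and 2 of the erythroid markers in every line. The same held for 2 of the stromal markers, and for 3 in B117P. A count above the median thus does not by itself show a cell type. The part of these markers in any result below was not tested.

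The windows around the annotated starts of Dck and Dguok are shown because these were the 2 kinases called in both resistant lines, in opposite directions. Each holds 250 bases before and 50 after the start, from RefSeq on GRCm38.p6, at chr5:88764763-88765062 (plus strand) for Dck and chr6:83506920-83507219 (minus strand) for Dguok. Capitals mark the GC box, GGGCGG on either strand (CCGCCC in the strand shown).
Dck: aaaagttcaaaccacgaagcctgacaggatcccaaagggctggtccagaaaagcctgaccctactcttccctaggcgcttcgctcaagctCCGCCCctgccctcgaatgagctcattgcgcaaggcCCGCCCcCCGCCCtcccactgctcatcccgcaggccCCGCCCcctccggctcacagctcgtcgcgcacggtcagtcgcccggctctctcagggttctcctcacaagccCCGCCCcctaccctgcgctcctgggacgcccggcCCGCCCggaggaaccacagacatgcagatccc
Dguok: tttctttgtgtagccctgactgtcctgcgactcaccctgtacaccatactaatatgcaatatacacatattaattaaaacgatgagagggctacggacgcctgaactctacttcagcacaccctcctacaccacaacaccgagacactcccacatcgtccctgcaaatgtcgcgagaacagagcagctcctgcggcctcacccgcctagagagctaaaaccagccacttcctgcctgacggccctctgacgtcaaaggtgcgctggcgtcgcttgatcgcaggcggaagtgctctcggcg
The Dck window held 6 such matches and the Dguok window 0. Of 32841 windows of this length, 35.7% held at least 1 match and 1.35% held 6 or more. CCAAT and TATAAA, searched on both strands, were in neither window, against 37.4% and 13.6% of all windows, and no matches overlapped in these 2 windows. The G+C share was 67% for Dck and 54.7% for Dguok, with a median of 52.7% over all windows. The shares of windows with a match were not adjusted for G+C. Among the other members, the windows of Uck2, of both Adk starts and of an Nme2 start held 4 GC box matches each. Those of Uck1 and Nme1 held 0, and none of these genes was called in a resistant line. The part of the matches in any change was not tested. A match is a string of letters and not a measured binding site.

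Dck was lower in both resistant lines, and by 2 of its 3 probe sets nearly all of its signal was gone in B117H, while a measurable part was left in B140H. By the third probe set the order turned round, with a lower signal in B140H and overlapping values in B117H and B117P. Since the arrays measured bulk cultures, fewer cells with Dck transcript and less transcript per cell cannot be told apart.

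Probe set 1439012_a_at of Dck read 9.39, 11.2 and 9.91 intensity units on arrays A, B and C of B117H, against 2287, 3158 and 2935 in B117P. It read 305, 281 and 309 in B140H, against 2337, 2481 and 2576 in B140P. The resistant arrays lay far below the parental ones in both lineages, with no overlap. On the B117H arrays, 62, 416 and 140 of the 45037 probe sets were lower still, so the probe set sat among the lowest 0.924% of the array, below its 1st percentile. On the B140H arrays it sat above 67.6% to 69.2% of all probe sets, and on the parental arrays above 92.6% to 94.8%.

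The limma fit gave this probe set a log2 change of -7.96 in B117H (95% interval -8.22 to -7.70, adjusted p = 7.73e-13) and of -3.04 in B140H (-3.30 to -2.78, adjusted p = 1.92e-08). The first is nominally 249-fold and was 106-fold with a pseudocount of 16 in place of 1, so its size is not exact. The second is 8.24-fold and was between 7.89-fold and 8.55-fold under the 24 other settings tried.

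Probe set 1449176_a_at, which carries the Dck accession NM_007832, gave the same picture. It read 15.4, 14.4 and 11.8 units in B117H, against 1031, 1494 and 1339 in B117P. It read 146, 137 and 141 units in B140H, against 863, 1141 and 1199 in B140P. The log2 changes were -6.43 (SE 0.16, adjusted p = 1.52e-10) in B117H and -2.90 (SE 0.16, adjusted p = 4.14e-07) in B140H. The first of these is nominally 86.3-fold and was 43.3-fold with a pseudocount of 16. Over the 12 arrays this probe set and 1439012_a_at correlated at 0.995, a value that the differences between the 4 lines largely set.

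Probe set 1428838_a_at of Dck read 259, 217 and 198 units in B117H, against 291, 204 and 243 in B117P, and these groups overlapped. It read 61.9, 101 and 74.0 units in B140H, against 217, 203 and 199 in B140P, with no overlap. Its log2 change was -0.12 in B117H (95% interval -0.50 to 0.25, adjusted p = 0.913) and -1.41 in B140H (-1.78 to -1.03, adjusted p = 0.000365). So where the other 2 Dck probe sets were near the bottom of the array, this one stood above 61.4% to 65.7% of all probe sets. Over the 12 arrays it correlated with them at 0.06 and 0.15. The files do not say which part of the Dck transcript each probe set reads.

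**Figure D1:**
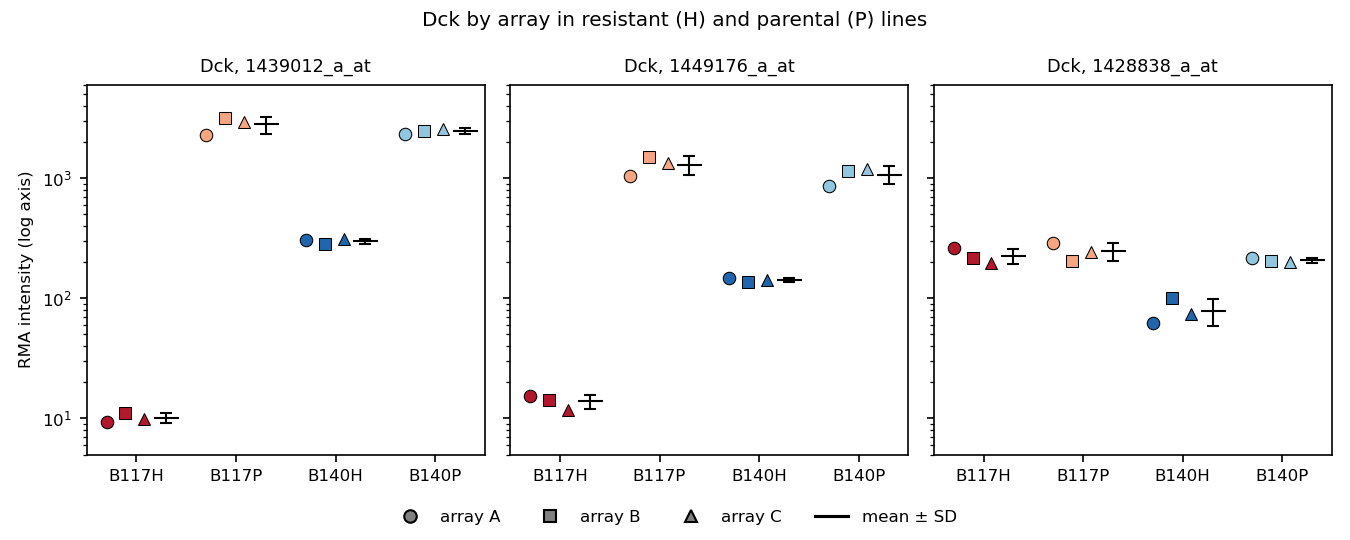
Intensity of the 3 Dck probe sets on each array (log axis), with the mean and SD of the 3 arrays of each line beside the points. In the left and middle panels B117H lies lowest, B140H in between and both parental lines highest. In the right panel only B140H lies below the other lines.

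The change of Dck differed between the lineages by every probe set. The change in B140H minus the change in B117H was 4.92 log2 units for 1439012_a_at (adjusted p = 2.56e-08), 3.53 for 1449176_a_at (1.38e-06) and -1.28 for 1428838_a_at (0.00551). With a pseudocount of 16 the first difference was 3.75 and the next 2.66, and without all C arrays the last was not called (adjusted p = 0.0968). Between the parental lines Dck was not called by any of its probe sets. B140P minus B117P was -0.17 (95% interval -0.43 to 0.09), -0.27 (-0.60 to 0.07) and -0.23 (-0.61 to 0.14), in the order 1439012_a_at, 1449176_a_at and 1428838_a_at (adjusted p of 0.337 or more). By the first 2 of these, B117P and B140P shared the top of the order with overlapping arrays, B140H came next and B117H last.

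The 5 genes whose levels over the 12 arrays were most like those of 1439012_a_at were Igfbp4, Fbxo17, G3bp2, Sdad1 and Dusp22, with Pearson correlations of 0.946, 0.946, 0.940, 0.940 and 0.936. They were picked among 1932 genes with a bright enough probe set that varied by at least 1 log2 unit between lines. The arrays of a line share its cells. In the order given, the log2 changes of the 5 genes were -2.16, -1.38, -1.13, -0.81 and -1.12 in B117H. In B140H they were -1.09, -0.39, -0.06, -0.28 and -0.05, where 1439012_a_at of Dck changed by -3.04. Igfbp4, which encodes a binding protein of insulin-like growth factors, read 590, 550 and 626 units in B117H, against 2272, 2691 and 3009 in B117P, and 2710, 1285 and 1619 in B140H, against 4770, 3221 and 3570 in B140P. G3bp2, a gene of stress granule proteins, read 1299, 1264 and 1099 units in B117H, against 2602, 2660 and 2734 in B117P. It read 1979, 1981 and 2161 units in B140H, against 2078, 2180 and 2118 in B140P, so it stood apart in the B117 lines and overlapped in the B140 lines. G3bp2 and Sdad1 lie on chromosome 5, as Dck does, and Igfbp4, Fbxo17 and Dusp22 on chromosomes 11, 7 and 13. RefSeq has 28 and 33 annotated protein-coding genes between Dck and G3bp2 and between Dck and Sdad1. How many of the 1932 genes lie on chromosome 5 was not counted, and the part of position in these levels was not tested.

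Among the 24 probe sets of all 10 genes, 2 rose in B117H, where 3.49% of all probe sets did, and 2 fell, where 3.46% of all did. In B140H 1 rose and 3 fell, with 1.98% and 2.67% of all probe sets. The arrays of B117H and B117P did not overlap for 9 of the 24, against 21.1% of all probe sets, and those of B140H and B140P for 6, against 18.8%. The median log2 change of the 24 was -0.09 in B117H and -0.03 in B140H, beside -0.01 and 0.05 over all probe sets. All falls were those of Dck. The count in B117H was 2 without all B arrays and 2 without all C arrays. The difference between the lineages was called for the 3 Dck probe sets only, 2 positive and 1 negative, with 3.57% and 4.01% of all probe sets. Their number was 2 without all C arrays and 5 without B140H C, where Tk1 and Cmpk1 1440308_at were added.

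**Figure D2:**
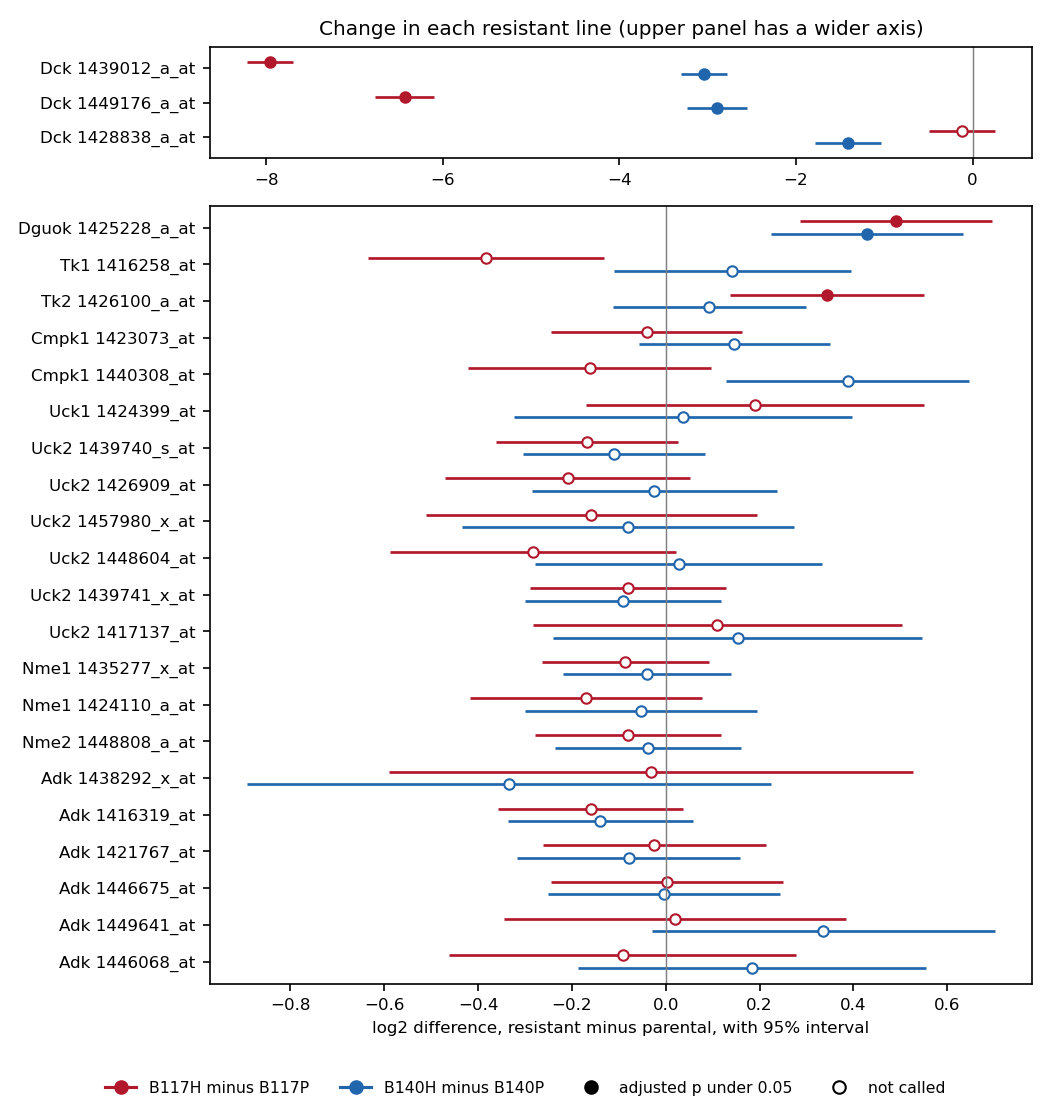
Log2 difference of the resistant minus the parental line for each of the 24 probe sets, with 95% intervals; filled points passed an adjusted p of 0.05. The upper panel, with its own axis, holds Dck at up to -7.96. In the lower panel Dguok is filled for both lineages and Tk2 for B117H.

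Of the mitochondrial kinases, Dguok rose in both resistant lines and Tk2 in B117H. Dguok read 802, 823 and 814 units in B117H, against 623, 556 and 559 in B117P. It read 759, 709 and 769 units in B140H, against 618, 508 and 540 in B140P. All 6 resistant arrays lay above all 6 parental ones. The change was 0.49 (1.40-fold, adjusted p = 0.00589) in B117H and 0.43 (1.35-fold, adjusted p = 0.0197) in B140H. The difference between these changes was -0.06 (95% interval -0.35 to 0.23, adjusted p = 0.885). The B117H call ended without all B (adjusted p = 0.0941) or all C arrays (0.188), where the change was 0.45 and 0.46. The B140H call ended without B140H A (0.064), B140H C (0.0582), B140P B (0.107) or B140P C (0.0848), without all arrays of any 1 letter (0.0657 to 0.303), after median centring of the arrays (0.059) and in a fit of the 6 B140 arrays alone (0.104). With these arrays or letters left out, the B140H change was between 0.37 and 0.50.

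Tk2 read 218, 209 and 217 units in B117H, against 186, 165 and 157 in B117P, and 255, 215 and 241 in B140H, against 214, 224 and 228 in B140P. The B117 lines did not overlap and the B140 lines did. The change in B117H was 0.34 (1.27-fold, adjusted p = 0.0479), just inside the threshold, and in B140H 0.09 (adjusted p = 0.741). The B117H call ended under 16 of the 24 other settings, with adjusted p-values of up to 0.582. Among them were single arrays left out, namely B117H A, B117H B, B117H C, B117P B, B117P C, B140H C, B140P A, B140P B or B140P C (0.0589 to 0.198). The B140 arrays belong to neither line compared, and without any of these the change itself stayed at 0.34. The difference between the lineages, -0.25, was not called (adjusted p = 0.379). In the parental lines Tk2 was higher in B140P than in B117P by 0.39 (adjusted p = 0.00974), and this was lost when B117P C was left out (0.051).

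Tk1, the thymidine kinase of dividing cells, read 1346, 1538 and 1420 units in B117H, against 2012, 1718 and 1886 in B117P, with no overlap. It read 3374, 3978 and 3097 in B140H, against 2843, 3474 and 3134 in B140P, and these groups overlapped. The change was -0.38 in B117H (95% interval -0.63 to -0.13, adjusted p = 0.0744) and 0.14 in B140H (adjusted p = 0.663), neither of them called. It was called in B117H without B140H B (adjusted p = 0.0385), an array of neither line compared, with the change itself still at -0.38. The difference between the changes was 0.52 (adjusted p = 0.0788), called without B140H C (0.0467).

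**Figure D3:**
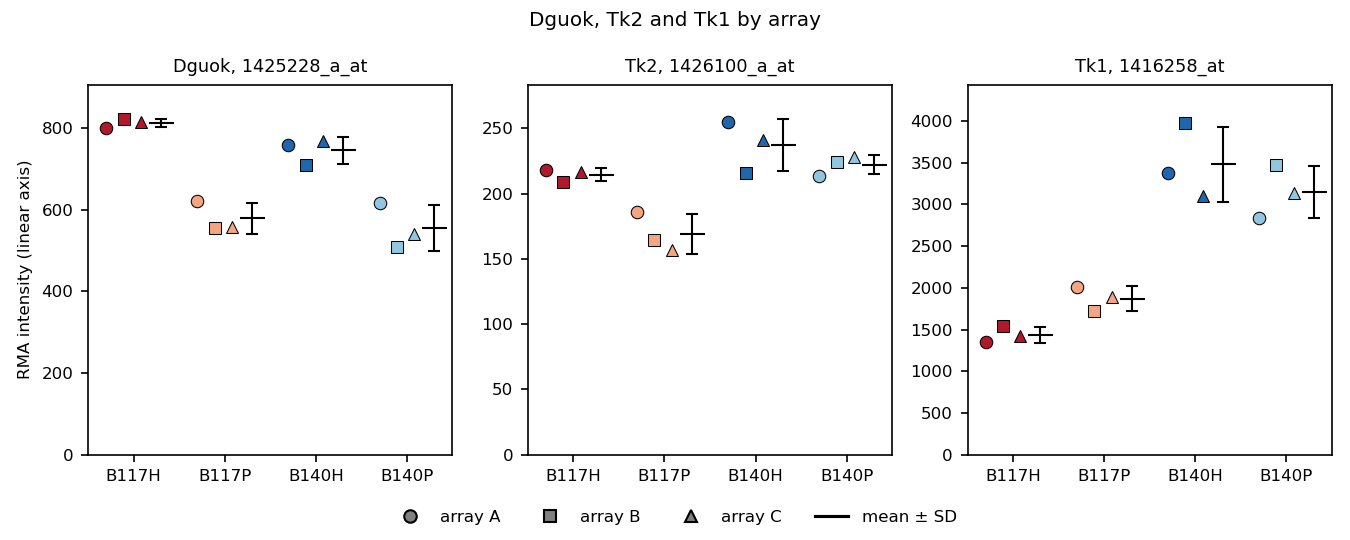
Intensity of Dguok, Tk2 and Tk1 on each array (linear axes from 0), with the mean and SD of each line beside the points. Dguok is higher on all arrays of B117H and B140H than on those of B117P and B140P. Tk1 is highest in the B140 lines.

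Genes of S phase and dividing cells, given beside Tk1, were called upward for 3 and downward for 1 of 19 measured in B117H, against 4.73% and 4.68% of all genes. In B140H 2 were called upward, against 2.81% of all genes, and 0 downward, against 3.75%. In B117H Tyms, which makes thymidylate, changed by 0.67, Rrm2, a subunit of ribonucleotide reductase, by 0.50 and the replication helicase gene Mcm3 by 0.48. The Tyms probe set was not bright, with log2 means of 7.83 in B117H and 7.16 in B117P, beside a median of 6.95 over all probe sets. Ccne1, which encodes a cyclin of the entry into S phase, had log2 changes of -0.96 in B117H and 0.73 in B140H (adjusted p = 0.000144 and 0.00194), where Mcm7 changed by 0.45 (0.0186). The difference between these Ccne1 changes was 1.68 (adjusted p = 3.51e-05), and it was the only 1 of the 19 called for it, upward, against 4.91% of all genes upward and 5.51% downward. The median change of the 19 genes was 0.14 in B117H and 0.22 in B140H, beside -0.01 and 0.05 over all genes. Their part in the Tk1 values was not tested.

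The kinases of the later phosphates were not called in either resistant line. The brighter Cmpk1 probe set, 1423073_at, read 8702, 8752 and 8213 units in B117H, against 9427, 8274 and 8731 in B117P. It read 8619, 8886 and 7464 in B140H, against 7855, 7381 and 7272 in B140P. Both pairs overlapped. Its changes were -0.04 (95% interval -0.25 to 0.16, adjusted p = 0.963) and 0.15 (-0.06 to 0.35, adjusted p = 0.551). The dimmer one, 1440308_at, read 108.1, 117.4 and 84.6 units in B140H, against 80.5, 80.6 and 73.2 in B140P, without overlap, a change of 0.39 (adjusted p = 0.102) that was called without B140H C (adjusted p = 0.0159). In B117H it changed by -0.16 (adjusted p = 0.675).

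Nme1 was measured by 1435277_x_at and 1424110_a_at and Nme2 by 1448808_a_at. The Nme1 and Nme2 transcripts are closely alike, and names ending in _x_at mark probes that may also bind other transcripts, so the 2 genes may not be fully separated here. In B117H their 3 probe sets changed by -0.09, -0.17 and -0.08 (adjusted p = 0.813, 0.607 and 0.866), and in B140H by -0.04, -0.05 and -0.04 (0.887, 0.891 and 0.903). The outer bounds of these 6 intervals were -0.42 and 0.19. Nme2 averaged 15239 ± 191 units in B117H and 16116 ± 379 in B117P, and 16436 ± 1293 in B140H and 16880 ± 1333 in B140P (SD, n = 3 each).

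Uck1, the ribonucleoside kinase with 1 probe set, read 771, 745 and 847 units in B117H, against 895, 495 and 739 in B117P, where array B stood lowest. It read 805, 730 and 723 in B140H, against 764, 699 and 738 in B140P. Both pairs overlapped, and the changes were 0.19 and 0.04 (adjusted p = 0.770 and 0.954). The 6 probe sets of Uck2 changed by -0.28 to 0.11 in B117H (adjusted p of 0.378 or more) and by -0.11 to 0.15 in B140H (0.657 or more). The brightest, 1439740_s_at, averaged 4789 ± 137 units in B117H and 5389 ± 381 in B117P (SD, n = 3 each), without overlap, and was still not called (adjusted p = 0.430).

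Adk, the adenosine kinase, was not called by any of its 6 probe sets in either resistant line. Their changes ran between -0.16 and 0.02 in B117H and between -0.33 and 0.34 in B140H, with adjusted p-values of 0.398 or more. Probe set 1416319_at read 1520, 1565 and 1390 units in B117H, against 1779, 1569 and 1653 in B117P, and 2296, 2114 and 2395 in B140H, against 2442, 2594 and 2453 in B140P. The resistant arrays lay below the parental ones in both lineages, and the changes of -0.16 and -0.14 stayed within the fit's error (adjusted p = 0.481 and 0.555). The brightest set, 1438292_x_at, read 2591 to 6611 units over the 12 arrays, and the remaining 4 were dim, at 26.6 to 146 units.

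Between the lineages, Tk1, Nme1 and Adk were higher and Uck2 was lower in the B140 lines, resistant and parental alike. In B140H minus B117H 9 of the 24 were higher, against 10.6% of all probe sets, and 4 lower, against 10.1%. In B140P minus B117P 5 were higher, against 9.20%, and 4 lower, against 8.76%. The arrays did not overlap for 14 of the 24 between the resistant lines (31.8% of all) and for 13 between the parental lines (32.2% of all). These comparisons share arrays with those above. Tk1, both Nme1 probe sets, 1 Adk probe set and 3 Uck2 probe sets passed in both comparisons. Among the B cell markers given above, Cd79a, Cd79b and Ebf1 were higher in both B140 lines, with no overlap between the lineages. Ms4a1 and Pax5 overlapped between the lineages, in resistant and parental lines. Cd79b had log2 means of 11.43 in B140H and 10.84 in B140P, against 5.99 in B117H and 6.74 in B117P. For Pax5 these were 7.70 and 7.44, against 7.43 and 7.42.

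Tk1 was higher by 1.27 (2.42-fold, adjusted p = 3.16e-06) in B140H than in B117H, and by 0.75 (1.68-fold, adjusted p = 0.000402) in B140P than in B117P. All 6 B140 arrays, at 2843 to 3978 units, lay above the 6 B117 arrays, at 1346 to 2012. By the order of line means, B140H and B140P overlapped at the top and B117H stood apart at the bottom.

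Nme1 by 1424110_a_at read 6843, 8114 and 7082 units in B140H, against 4827, 5135 and 3965 in B117H, a difference of 0.67 (adjusted p = 0.000773). It read 6863, 8136 and 7858 in B140P, against 5294, 5213 and 5081 in B117P, a difference of 0.55 (adjusted p = 0.00364). By 1435277_x_at the differences were 0.34 (adjusted p = 0.00851) and 0.30 (0.0224), the last not called without B117P A, B117P C, B140P B or B140P C (0.0629 to 0.110). Nme2 differed by 0.11 (95% interval -0.09 to 0.30) between the resistant and 0.06 (-0.13 to 0.26) between the parental lines and was not called (adjusted p = 0.493 and 0.805).

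Adk by 1416319_at was higher by 0.60 (1.52-fold, adjusted p = 0.000267) in B140H than in B117H and by 0.58 (adjusted p = 0.000405) in B140P than in B117P. Its line means followed the order B140P, B140H, B117P and B117H, and no neighbours in that order overlapped. The dim sets 1449641_at and 1446068_at were higher in B140H than in B117H by 0.59 and 0.61 (adjusted p = 0.0234 and 0.022). Both calls ended without B117H B, B117H C, B140H A or B140H C, and that of 1446068_at also without B117H A (0.0508 to 0.112).

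Uck2 ran the other way. Its brightest probe set, 1439740_s_at, read 3382, 3577 and 3651 units in B140H, against 4898, 4836 and 4635 in B117H, a difference of -0.44 (adjusted p = 0.00291). It read 3578, 4097 and 3795 in B140P, against 5032, 5791 and 5344 in B117P, a difference of -0.49 (adjusted p = 0.00132). Probe set 1439741_x_at, of the same accession AU018180, differed by -0.42 and -0.41 (adjusted p = 0.00595 and 0.0078), so these 2 are not independent readings. Probe set 1448604_at differed by -0.45 and -0.76 (adjusted p = 0.0395 and 0.00164). Its first call ended without B117H A, B117H B, B117P C, B140H A, B140H C or B140P B (0.054 to 0.143). Of the other Uck2 sets, 1426909_at was called between the parental lines, by -0.38 (adjusted p = 0.0449), which ended without any 1 array other than B140H B and B140H C (0.0547 to 0.164). Probe sets 1457980_x_at and 1417137_at were not called, at -0.37 and -0.07 between the parental lines, though 1457980_x_at was called there without B117P A (adjusted p = 0.00932).

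Cmpk1 by 1440308_at was higher by 0.38 in B140H than in B117H (adjusted p = 0.0386). This call ended without B117H A, B117H B, B117P B, B140H A, B140H B, B140P A or B140P B (0.0512 to 0.139). Its brighter probe set differed by -0.04 (adjusted p = 0.808). Dguok and Uck1 were not called between the lineages in resistant or in parental lines, with differences of -0.13 to 0.09. Without all C arrays the number called was 8 between the resistant and 4 between the parental lines, and without all A arrays it was 8 between the resistant lines. Calls given above that ended when a whole letter was left out were those of Nme1 1424110_a_at between the parental lines (without C, adjusted p = 0.0570), Nme1 1435277_x_at in both comparisons (0.0548 to 0.241), Uck2 1439741_x_at in both (0.0540 to 0.131) and Tk2 between the parental lines (without B or C, 0.0966 and 0.227). Between the resistant lines the same held for Uck2 1448604_at (any letter, 0.0868 to 0.238), Adk 1449641_at (B or C, 0.0901 and 0.225), Adk 1446068_at (A or C, 0.179 to 0.216) and Cmpk1 1440308_at (A or B, 0.247 to 0.431), and between the parental lines for Uck2 1426909_at (any letter, 0.0501 to 0.384). The Adk set 1421767_at, not called at 0.28 and 0.33 (adjusted p = 0.105 and 0.0564), was called between the resistant lines without B117H B (0.0494), and between the parental lines without B117H B, B117H C, B140H B or B140P A (0.0385 to 0.0490). The Adk set 1446068_at was called between the parental lines without B140H B (0.0362).

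**Figure D4:**
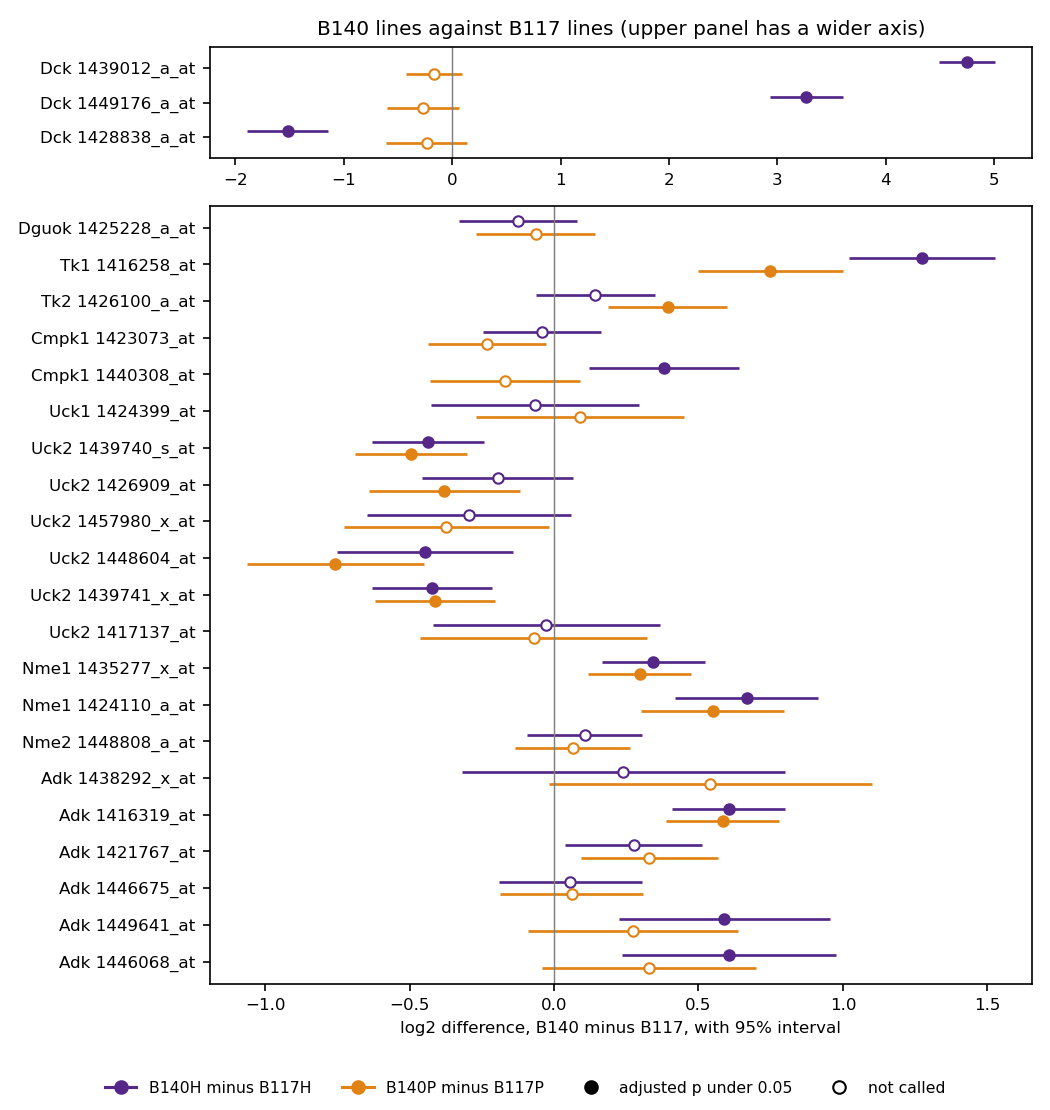
Log2 difference of the B140 minus the B117 line for each probe set, between the resistant lines and between the parental lines, with 95% intervals; filled points passed an adjusted p of 0.05. In the lower panel Tk1, Nme1 and Adk 1416319_at lie above 0 and 3 Uck2 sets below 0 in both comparisons. In the upper panel, with its own axis, the Dck sets differ between B140H and B117H and have open points between B140P and B117P.

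Part of the spread of some probe sets followed the array letters. Adk 1438292_x_at, the brightest Adk set, read lowest on array A in all 4 lines, at 3234 in B117H, 2591 in B117P, 3229 in B140H and 4372 in B140P. Its array C read 3885, 4245, 6366 and 6611 units in the same lines. Uck2 1457980_x_at was lowest on A and highest on C in all 4 lines, and Uck2 1417137_at was lowest on C in all 4. Of the 24 probe sets, these were the only 3 with 1 letter lowest in every line. With the letter as a replicate block, Uck2 1457980_x_at was called lower in B140H than in B117H (-0.30, adjusted p = 0.0410, against 0.257 without the block) and in B140P than in B117P (-0.37, 0.0137 against 0.166). The block also called Adk 1438292_x_at higher in B140P than in B117P (0.54, adjusted p = 0.0197 against 0.213). Adk 1421767_at was called with it in both comparisons (0.28 and 0.33, adjusted p = 0.0464 and 0.0213).

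**Figure D5:**
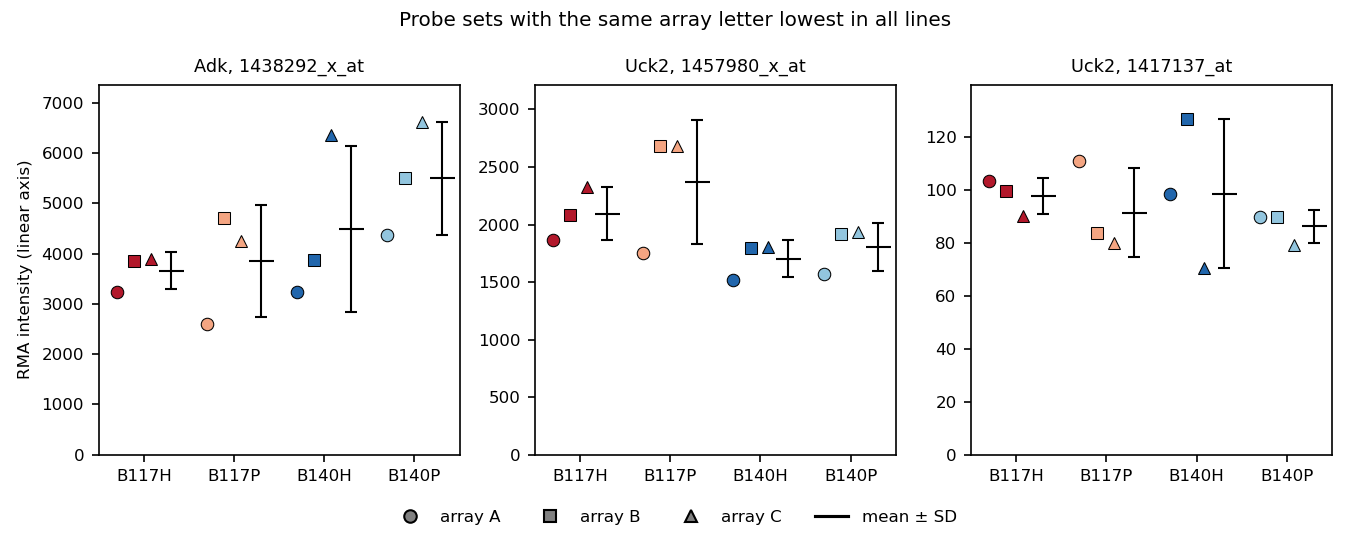
Intensity of 1 Adk and 2 Uck2 probe sets on each array (linear axes from 0), with the mean and SD of each line beside the points. Array A is the lowest of its line in the left and middle panels and array C in the right panel.

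Other nucleotide kinases and other steps of Ara-C handling were read by the brightest probe set of each gene. Of 14 measured kinases outside the 10, Ak1, an adenylate kinase, rose in B117H by 0.54 (adjusted p = 0.00356) and 0 fell, where 4.73% of all genes rose and 4.68% fell. In B140H 0 rose by limma and Ak8, another adenylate kinase, fell by 0.58 (adjusted p = 0.0282), with 2 at an unadjusted p under 0.05, where 2.81% of all genes rose and 3.75% fell. Their median change was 0.02 in B117H and 0.07 in B140H, beside -0.01 and 0.05 over all genes. For the difference between the lineages limma called 0 of the 14, with 4 at an unadjusted p under 0.05, where 4.91% of all genes were called upward and 5.51% downward.

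Of 22 measured genes of transport, inactivation and competing deoxynucleotide supply, 3 rose and 1 fell in B117H, where 4.73% and 4.68% of all genes did. Those that rose were Nt5c3b, a nucleotidase, by 0.70 (adjusted p = 0.0161), Tyms and Rrm2, and Ctps2, which makes CTP, fell by 0.42 (adjusted p = 0.0112). In B140H limma called 0 of the 22, with 3 at an unadjusted p under 0.05, where 2.81% of all genes rose and 3.75% fell. Their median change was 0.00 in B117H and 0.02 in B140H. Rrm1, the large subunit of ribonucleotide reductase, had a log2 change of 0.14 in B117H (adjusted p = 0.568) and 0.30 in B140H (0.0892). For the difference between the lineages limma called 0 of the 22, with 7 at an unadjusted p under 0.05, where 4.91% of all genes were called upward and 5.51% downward.

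Read between the lineages, 3 of the 14 other kinases were higher and 4 lower in B140H than in B117H, where 27.0% of all genes were called in either direction. In B140P 2 were higher and 4 lower than in B117P, where 23.8% of all genes were called. The changes were widest for Ak3, a mitochondrial kinase of the adenylate kinase family, which was higher by 5.06 in B140H and by 5.38 in B140P, and for Cmpk2, a mitochondrial kinase of UMP and CMP, at -2.18 and -1.85. Ak1 differed by -1.59 and -1.27 in the same comparisons, Nme4 by -1.41 and -1.24 and Nme7 by -1.37 and -1.33. Of the 22 genes of Ara-C handling, 8 were higher and 3 lower in B140H, and 6 higher and 3 lower in B140P. Those with the widest differences between the resistant lines were the nucleotidase genes Nt5c3b (-1.39) and Nt5c2 (-0.86), the nucleoside transporter gene Slc29a2 (0.74) and Ctps2 (0.59). Between the parental lines they were the nucleotidase genes Nt5c2 (-1.40), Nt5e (-0.91), Nt5c3b (-0.79) and Nt5c (0.69). Of the 19 S phase genes, 4 were higher and 1 lower in B140H, led by Ccne1 (1.44), E2f1 (0.61), Mcm3 (-0.41) and Top2a (0.30). In B140P 3 were higher than in B117P, E2f1 by 0.45, Rrm2 by 0.41 and Mki67 by 0.35, and 0 lower.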

How the data were processed

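Total RNA of 12 cell line samples, 3 arrays per line, was amplified, biotin-labelled and hybridised to one-colour arrays with Affymetrix-type probe sets. The deposited values are probe-set intensity values made by the authors with RMA, per the submitters' processing notes; no version of it is stated there. Their linear scale was read from the values, 7.65 to 36675. No detection calls were used.

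Here 64 control probe sets were left out and log2(value + 1) of the other 45037 was fitted with limma 3.58.1 in R 4.3.3, 1 coefficient per line over all 12 arrays (two-sided; Benjamini-Hochberg over all 45037; called at adjusted p under 0.05; a fold is 2 to the log2 change). The script was tested on simulated data. The prior had 4.65 degrees of freedom and the median residual SD was 0.154; the number of arrays limits the precision. RMA compresses differences among low values.

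Genes were named from the platform annotation (34945 probe sets with 1 symbol, 932 with several, 9160 with none). All member probe sets are named. Of each further list up to 4 called genes per comparison are named. Nme4 and Nme7 are given in both comparisons between the lineages, and Rrm1 was added after its values were seen. The members and lists were chosen with earlier results of these data known.

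Arrays of the same letter in B140H and B140P deviated together from their line means (r = 0.587, 0.360 and 0.560 for A, B and C), as did those of B140H and B117H (0.455, 0.349 and 0.532) and of B140P and B117P (0.499, 0.131 and 0.414). The replicate block is therefore given as a pairing for these comparisons, as an alternative to the fit above, which had no block. Changes and calls come from the fit without the block unless the block is named. It changed none of the 4 calls of B140H against B140P. Alternatives covered the pseudocount, normalization, dim probe sets, variance prior, array weights, arrays in the fit, the block and arrays left out. Leaving out arrays also leaves fewer to estimate the error, so a call can end with little move in the change. Where an array left out belonged to neither line compared, the change stayed the same. Only the error estimate and the adjustment of p moved there.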

Additional observations from a re-analysis of the deposited data

Results flagged for a closer look

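The change of Dck differed between the lineages, by the test of the difference itself. The change in B140H minus the change in B117H was 4.92 for 1439012_a_at (adjusted p = 2.56e-08 by limma), 3.53 for 1449176_a_at (1.38e-06) and -1.28 for 1428838_a_at (0.00551). All 3 B140H arrays lay above all 3 B117H arrays by 1439012_a_at and 1449176_a_at, and below them by 1428838_a_at. The cause was not tested.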

How the results depend on the processing

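Of 24 other settings, none reversed a called change of a member. The 3 Dck changes called in B140H and the 2 called in B117H passed under all 24. Of 2040 recomputed values of changes that were not called, 106 had the other sign. With the replicate block 5 probe sets of the 24 were called for the difference between lineages, against 3 without it, the added ones being Tk1 (adjusted p = 0.0448) and Cmpk1 1440308_at (0.0419); in B117H the block added Tk1 (0.0424), and it ended no call there or in B140H. Arrays of the same letter in B117H and B117P correlated at 0.555 for A and 0.392 for C but at 0.028 for B. Pairing by letter was thus unclear there, and letter B also gave only 0.131 in B140P and B117P. The block was fitted over all 12 arrays, with the same letter effects in every line. Its results for B117H and for the difference between lineages therefore also rest on that unclear pairing. Between the lineages the block gave 15 calls in the resistant and 12 in the parental lines, against 13 and 9 without it. Leaving out single arrays or all arrays of a letter gave 2 to 5 called probe sets in B117H, 2 to 5 for the difference between lineages, 8 to 13 between the resistant and 4 to 11 between the parental lines, and a difference of -1.47 to -1.11 for Dck 1428838_a_at. Tk1 in B117H was also called with brighter probe sets only (0.0425), an intensity trend (0.0457) or array weights (0.0499). The causes were not tested. Values near the bottom of the arrays, such as Dck in B117H, carry no measure of background.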
